A study of Mus musculus with 2 samples.

Results

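Axon guidance ligands and receptors were described in 2 RNA-seq libraries of mouse embryonic fibroblasts (MEFs), the connective tissue cells that grow out of cultured embryos. Members were chosen by gene symbol alone: semaphorins (Sema), plexins (Plxn), Slits, Robos, ephrins (Efna, Efnb), Eph receptors (Epha, Ephb), netrins (Ntn), the UNC5 receptors (Unc5 with a letter), neuropilins (Nrp1, Nrp2) and Dcc. This gave 70 genes of the 51912 in the files, 36 ligands and 34 receptors. Earlier results of these data were known when the symbols were chosen. Slitrk genes, the antisense transcripts of Plxna4, and Unc50 and Unc5cl, which are not netrin receptors, were left out.

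The KS library came from a line with wild-type Usp16, and the UKS library from a line in which adenoviral Cre (Ad-Cre) had removed both floxed copies of that gene (Usp16 flox/flox before, Usp16-/- after), which encodes a histone H2A deubiquitinase. Both lines were on a C57BL/6 background, were immortalized with SV40 T antigen and received the Cre adenovirus. The labels do not say whether a line was 1 clone or which embryo it came from. Each group has 1 library, so the differences below have no replicate check, no test was made and no p-value is given.

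Guidance molecules steer growing axons and migrating cells through a small number of matched systems. Secreted class 3 semaphorins bind neuropilins, which signal through plexins, while most other semaphorins bind plexins directly. Slits bind Robo receptors, netrins bind DCC and UNC5 receptors, and ephrins, which are tethered to the membrane, bind Eph receptor tyrosine kinases on neighbouring cells. Outside the nervous system the same molecules act in blood vessel growth, tissue boundaries and the migration and spreading of fibroblasts.

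Files held 1 estimated read count per gene and library, with totals of 26561600 in KS and 23205734 in UKS after rounding to whole counts. Levels are given as CPM, counts brought to the same library total with TMM scaling. The difference is log2((UKS + 1)/(KS + 1)), with 1 CPM added to each level, and a fold is the plain ratio of CPM. The addition pulls low genes toward 0, so a fold above 2 can go with a log2 value below 1. A gene was counted as measured at a mean of at least 1 CPM, and as higher or lower in UKS at 2-fold or more on the log2 scale, which is a size and not a test. Brackets hold exact 95% intervals of the ratio of counts, which cover counting error only. Usp16 itself had 1195 counts in KS against 459 in UKS, and a count per gene does not show on which exons the remaining reads lay. Xist, the X-inactivation transcript, had 1 count in KS and 6998 in UKS, so the lines also differ in a way other than Usp16, and the deletion cannot be told apart from other differences between the 2 lines.

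Fibroblast markers were abundant in both libraries: all 12 fixed markers were measured, with sums of 18906 and 20796 CPM in KS and UKS. The rise of this sum lay in Fn1 (8995 and 14582 CPM), while the other 11 summed to 9911 and 6215 CPM, and 3 of them (Fap, Pdgfra and Thy1) were lower in UKS by 2-fold or more. Because guidance genes are well known from neurons and vessels, markers of those cells were read as well. The 10 neuronal markers summed to 134 CPM in KS and 51.9 CPM in UKS, of which Gap43 held 101 and 19.6 CPM and the other 9 together 33.4 and 32.3 CPM. Among these 9, Elavl4 had 105 and 3 counts and Stmn2 had 38 and 196, in opposite directions, and the defining neuronal genes Dcx and Rbfox3 were at 0 in both libraries. The 8 endothelial markers summed to 11.2 and 16.5 CPM, with Pecam1 at 3 and 6 counts and Cdh5 at 9 counts in each. The 7 glial markers summed to 6.10 and 1.93 CPM, with Sox10 at 0 in both, the 6 epithelial markers to 3.79 and 1.50 CPM, with Krt5 and Krt14 at 0 in both, and the 6 blood markers to 6.21 and 5.35 CPM, with Cd3e and Itgam at 0 in both. The part of such cells in the values below was not tested.

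Of the 70 guidance genes 57 were measured. Among these, 12 were higher in UKS by 2-fold or more (21.1%, against 5.81% of all 13015 measured genes), 5 were lower by that much (8.77%, against 10.7% of all measured genes), and 40 lay within 2-fold. Their median log2 ratio was 0.32, against 0.03 over all measured genes. Of the 12 higher members 3 (Sema3g, Slit1 and Robo2) were under 1 CPM in KS and passed the filter through UKS alone, so their ratio could only be above 1. Within 2-fold, Sema4d, Robo3 and Unc5a likewise passed through UKS alone and Plxnc1 through KS alone, so their side was fixed too. All 7 enter the median. The 13 members below the filter were Sema3d, Sema5b, Plxnb3, Robo4, Ntn5, Ntng1, Ntng2, Dcc, Unc5d, Epha6, Epha8, Epha10 and Ephb1, the largest of them Sema3d with 24 counts in KS and Ntng2 with 22 in UKS. Unc5d and Ephb1 had no counts in either library. In the plot of levels by family, the higher members are spread over semaphorins, netrins, Slits, ephrin-As and receptors, and class 4 to 7 semaphorins, ephrin-Bs and EphB receptors held none.

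**Figure D1:**
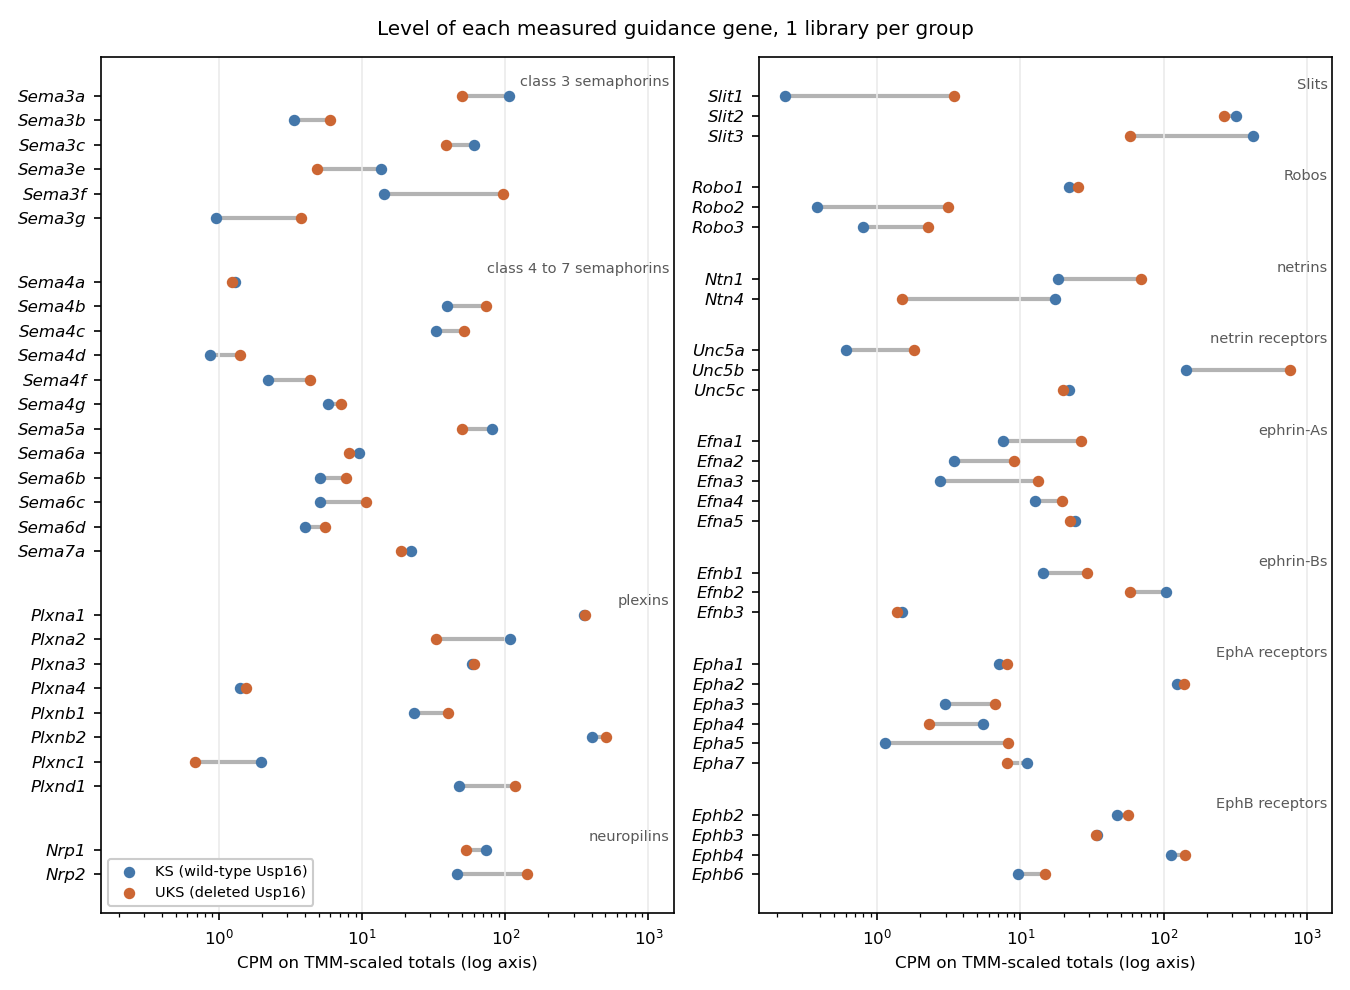
CPM on TMM-scaled totals (log axis) of the 57 measured guidance genes in the KS library (blue) and the UKS library (orange), grouped by family, with 1 library per group and no error bars. Unc5b, Sema3f, Nrp2 and Ntn1 lie further right in UKS, Slit3, Ntn4 and Plxna2 further left, and Plxnb2 and Plxna1 are high in both.

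Set against each other per transcript length, the order of the members differed between the libraries. CPM per kb divides the CPM by the length of the longest coding transcript, so genes can be compared. The most abundant member was Slit3 in KS, at 80.0 CPM per kb, followed by Plxnb2 at 61.6 and Plxna1 at 39.0. In UKS it was Unc5b, at 129 CPM per kb, followed by Plxnb2 at 78.4 and Plxna1 at 40.1. Slit3 stood at 11.2 CPM per kb in UKS and Unc5b at 24.5 in KS. The 34 receptor genes summed to 263 CPM per kb in KS and 414 in UKS, and the 36 ligand genes to 244 and 216. Of the ligand sum Slit3 alone held 80.0 and 11.2, and of the receptor sum Unc5b alone held 24.5 and 129. The median log2 ratio was 0.37 for the 31 measured ligands and 0.23 for the 26 measured receptors. These were 0.30 and 0.48 with the length and GC trend removed. UNC5 and DCC receptors held 26.9 CPM per kb of the receptor sum in KS and 132 in UKS. Each value is an average over the culture, in which fewer expressing cells and less RNA per cell cannot be told apart.

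The netrin ligands Ntn1 and Ntn4 differed in opposite directions, and the receptor Unc5b was higher in UKS. Netrin-1 (Ntn1; chromosome 11, 68209364 to 68400823, minus strand in GRCm38), a secreted cue that attracts or repels cells depending on the receptor, had 482 counts (18.3 CPM) in KS against 1634 (70.0 CPM) in UKS, 3.83-fold higher [3.46 to 4.25]. Netrin-4 (Ntn4; chromosome 10, 93640681 to 93747207, plus strand), a basement membrane netrin that binds laminins, stood at 459 counts (17.4 CPM) in KS against 35 (1.499 CPM) in UKS, 11.6-fold lower [8.22 to 16.9]. Ntn4 had the lowest log2 ratio of all measured members, −2.88, and ranked 41 from the bottom of the 13015 measured genes. Per kb, Ntn4 made up 59.5% of netrin RNA in KS and 3.16% in UKS, and Ntn1 38.8% and 91.7%, so the ratio of Ntn1 to Ntn4 per kb was 0.652 in KS and 29.0 in UKS. Within-library ratios of this kind do not depend on how the libraries are scaled, although they do carry the trend with length and GC content, and this one differed 44.5-fold [30.9 to 65.5] between the libraries. The pairs of genes set against each other in this way were chosen after their values were seen. Ntn5, a netrin of little known function, had 1 and 7 counts. The membrane-anchored netrins Ntng1 (2 and 0 counts) and Ntng2 (5 and 22 counts) also fell below the filter.

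Unc5b (GRCm38 chromosome 10, 60762593 to 60831581, minus strand), a repulsive netrin receptor also known from endothelial tip cells, had the highest level per kb of all members in the UKS library. It had 3797 counts (144 CPM) in KS against 17714 (759 CPM) in UKS, 5.27-fold higher [5.09 to 5.46], with a log2 ratio of 2.39 that ranked 119 from the top of all measured genes. Its paralog Unc5c, likewise a repulsive receptor, had 575 and 466 counts, a log2 ratio of −0.12 whose counting interval included equal levels and which was 0.76 with the transcript length and GC trend removed (this trend is described further on). Unc5a was low, with 16 and 42 counts and a log2 ratio of 0.80, and passed the filter through UKS alone. DCC, the classic attractive netrin receptor (Dcc), had 1 count in KS and none in UKS, so no fold was formed. Neogenin (Neo1), a DCC relative outside the symbol rule named here for its role, had 8100 and 10155 counts and a log2 ratio of 0.50. Of the RNA of the 4 UNC5 genes and Dcc together, Unc5b made up 91.0% per kb in KS and 98.1% in UKS.

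Promoter sequence is shown for 4 members that lay past 2-fold in opposite directions, so that their upstream regions can be read side by side. They are the 2 highest and the 2 lowest members that have 1 promoter window in RefSeq (GRCm38.p6) with no annotated exon in the 250 bases before the start site. The windows are chr10:60831582-60831831 on the minus strand for Unc5b, chr5:84417383-84417632 on the minus strand for Epha5, chr10:93640799-93641048 on the plus strand for Ntn4 and chr5:14025026-14025275 on the plus strand for Sema3e. The Ntn4 window lies in an intron of a shorter GENCODE transcript of the gene that starts further upstream. Each is written 5′ to 3′ in the direction of transcription and ends just before the start site, and capitals mark CpG dinucleotides.
Unc5b: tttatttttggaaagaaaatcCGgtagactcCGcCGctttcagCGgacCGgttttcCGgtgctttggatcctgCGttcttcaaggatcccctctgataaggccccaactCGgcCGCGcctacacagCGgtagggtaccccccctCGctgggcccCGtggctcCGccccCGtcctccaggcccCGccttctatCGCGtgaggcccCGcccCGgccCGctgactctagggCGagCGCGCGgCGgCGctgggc
Epha5: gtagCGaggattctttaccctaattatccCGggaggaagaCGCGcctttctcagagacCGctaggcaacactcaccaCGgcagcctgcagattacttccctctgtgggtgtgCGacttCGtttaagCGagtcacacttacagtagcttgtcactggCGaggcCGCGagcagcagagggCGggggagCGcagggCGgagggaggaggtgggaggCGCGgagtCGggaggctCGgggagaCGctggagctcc
Ntn4: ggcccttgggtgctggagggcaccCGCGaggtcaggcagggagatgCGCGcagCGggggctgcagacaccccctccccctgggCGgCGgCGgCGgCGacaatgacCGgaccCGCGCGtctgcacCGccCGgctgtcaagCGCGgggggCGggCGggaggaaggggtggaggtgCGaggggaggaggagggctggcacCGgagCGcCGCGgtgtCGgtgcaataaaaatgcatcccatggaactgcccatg
Sema3e: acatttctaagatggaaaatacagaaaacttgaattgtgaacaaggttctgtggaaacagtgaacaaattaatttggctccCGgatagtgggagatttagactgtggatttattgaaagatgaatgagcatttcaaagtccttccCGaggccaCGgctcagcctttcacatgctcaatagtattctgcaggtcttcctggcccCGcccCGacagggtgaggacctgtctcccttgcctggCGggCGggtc

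The first 3 windows are rich in CpG and the window of Sema3e is not. Unc5b held 27 CpG dinucleotides at 66.8% GC, Epha5 held 20 at 62.4%, Ntn4 held 26 at 73.2% and Sema3e held 7 at 48.0%, so a CpG-rich start was found on both the higher and the lower side. Of the 70 members 60 had at least 1 window, 76 windows in all, with a median of 15.5 CpG dinucleotides, against 6 over all 32851 mouse windows. The median was 18 in the 13 windows of members higher in UKS and also 18 in the 5 windows of members lower in UKS, among which Slit3 held 35 and Sema3a held 2. The 13 windows belong to 9 of the 12 higher members, with 3 from Robo2 and 2 each from Efna1 and Efna3. Sema3f, Ntn1 and Slit1 had no window. The GC box motif GGGCGG, searched on both strands, was present in 53 member windows (69.7%) and in 32.7% of all windows. All windows were taken whether or not their gene was measured. In the 11 windows of members below the filter the motif was present in 36.4%, with a median of 10 CpG dinucleotides. In the 47 windows of members within 2-fold it was present in 74.5%, with a median of 15. The part of expression in the contrast with all windows was not tested. An AP-1 site spelled TGANTCA (its reverse complement has the same form) was present in 3 member windows (3.95%, against 6.75% of all), all of them of members within 2-fold. The TEAD motif GGAATG, searched on both strands, was present in 8 member windows (10.5%, against 12.6% of all), and of the members past 2-fold only the window of Plxnd1 held it. The TATA box TATAAA, on both strands, was present in 2 member windows (2.63%, against 12.4% of all). A match says only that these letters occur in the window.

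Slit3 was lower in UKS, while Robo1, the main Slit receptor here, stayed within 2-fold. Slit3 (chromosome 11, 35121224 to 35708507, plus strand), a secreted ligand of Robo receptors, stood at 11041 counts (418 CPM) in KS against 1362 (58.3 CPM) in UKS, 7.17-fold lower [6.78 to 7.59]. Slit2, the best studied Slit and the most abundant one in UKS, had 8479 counts (321 CPM) in KS against 6122 (262 CPM) in UKS, a log2 ratio of −0.29 (0.53 with the length and GC trend removed). Slit1, mainly known from the nervous system, was low in both, with 6 counts in KS against 80 in UKS, 15.1-fold higher [6.63 to 42.3]. It passed the filter through UKS alone, so its side was fixed. Slit3 made up 71.2% of the summed Slit CPM per kb in KS and 29.3% in UKS, and Slit2 made up 28.7% and 69.1%. The within-library ratio of Slit3 to Slit2 was 5.85-fold lower in UKS [5.48 to 6.25], a log2 difference of −2.53 that was −3.45 after removal of the trend. Summed over the 3 genes, Slit RNA was 112 CPM per kb in KS and 38.1 in UKS.

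Robo1 made up 92.8% of Robo RNA per kb in KS and 79.7% in UKS. It had 578 counts (21.9 CPM) in KS against 588 (25.2 CPM) in UKS, with a log2 ratio of 0.19. Robo2, a close paralog on the same chromosome, had 10 counts in KS against 73 in UKS, 8.25-fold higher [4.24 to 17.9], but reached only 3.13 CPM. Robo3, a receptor that works against Slit repulsion in commissural axons, had 21 and 53 counts and a log2 ratio of 0.86. Robo4, an endothelial Robo, had 2 and 1 counts. Robo2 was thus the single Robo gene past 2-fold. Both Robo2 and Robo3 were under 1 CPM in KS and passed the filter through UKS alone, so their side was fixed.

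Class 3 semaphorins, the secreted repellents that act through neuropilins and plexins, fell on both sides. Of the 7 genes 6 were measured, of which Sema3f and Sema3g lay past 2-fold upward and Sema3a and Sema3e downward, the last 2 only before the length and GC trend was removed. Sema3f (chromosome 9, 107681500 to 107710475, minus strand), whose usual receptor is neuropilin-2, had 376 counts (14.2 CPM) in KS against 2238 (95.9 CPM) in UKS, 6.73-fold higher [6.03 to 7.53]. Its log2 ratio of 2.67 was the highest of all measured members and ranked 88 from the top of all measured genes. Sema3g, a vascular semaphorin that also binds neuropilin-2, had 25 and 87 counts, 3.93-fold higher [2.50 to 6.41]. It passed the filter through UKS alone, so its side was fixed. On the other side, Sema3a (chromosome 5, 13125414 to 13602565), the founding member of the class, which binds neuropilin-1, had 2782 counts (105 CPM) in KS against 1165 (49.9 CPM) in UKS, 2.11-fold lower [1.97 to 2.26], and its log2 ratio of −1.06 was −0.23 with that trend removed. Sema3e (chromosome 5, 14025276 to 14256689), the ligand that binds plexin-D1 without a neuropilin, had 355 and 113 counts, 2.78-fold lower [2.24 to 3.46], with log2 ratios of −1.31 and −0.49. Sema3c had 1605 and 900 counts and a log2 ratio of −0.64 (near 0 with the trend removed), and Sema3b had 88 and 139 counts and a log2 ratio of 0.68.

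The leading class 3 semaphorin was Sema3a in KS and Sema3f in UKS. Sema3a made up 48.9% of the class per kb in KS and 17.9% in UKS, whereas Sema3f made up 11.5% and 60.1%. The within-library ratio of Sema3f to Sema3a differed 14.2-fold [12.5 to 16.2] between the libraries. On the log2 scale the difference between both genes' ratios was 3.73 as counted, or 2.58 after removal of the trend. Of their co-receptors, Nrp2 (chromosome 1, 62703285 to 62818695, plus strand) stood at 1206 counts (45.7 CPM) in KS against 3306 (142 CPM) in UKS, 3.10-fold higher [2.90 to 3.31], whereas Nrp1, also a VEGF co-receptor, had 1931 counts (73.1 CPM) in KS against 1249 (53.5 CPM) in UKS, a log2 ratio of −0.44. Nrp2 was 25.0% of neuropilin RNA per kb in KS and 58.6% in UKS, and its ratio to Nrp1 differed 4.24-fold [3.84 to 4.68].

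**Figure D2:**
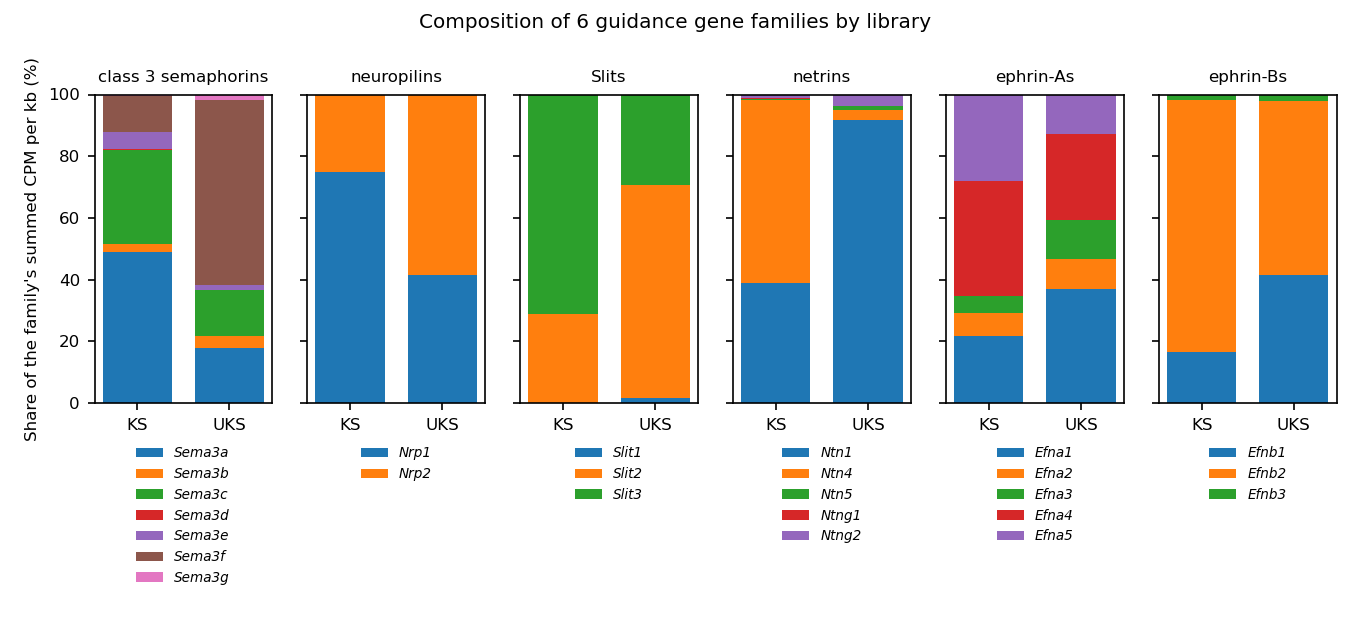
Stacked bars show each gene's share (%) of its family's summed CPM per kb in KS and in UKS, for 6 families, with 1 library per bar. Sema3f goes from 11.5% to 60.1% of class 3 semaphorins, Nrp2 from 25.0% to 58.6% of neuropilins, Slit3 from 71.2% to 29.3% of Slits, Ntn4 from 59.5% to 3.16% of netrins and Efnb1 from 16.6% to 41.4% of ephrin-Bs.

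Membrane-bound and other semaphorins of classes 4 to 7 stayed within 2-fold throughout. All 12 measured genes lay between −0.69 and 0.96 on the log2 scale, with a median of 0.37, and 4 of the 12 had intervals that included equal levels. The class 4 genes Sema4b (1038 and 1725 counts, log2 ratio 0.89) and Sema4c (871 and 1204 counts, 0.63) were the most abundant of these classes per kb in both libraries. Sema5a, a bifunctional cue with thrombospondin repeats, had 2137 and 1166 counts and the lowest ratio of the group, −0.69 (0.18 with the length and GC trend removed). Sema6c had 133 and 250 counts and the highest ratio, 0.96, a 2.13-fold difference in plain CPM [1.72 to 2.64]. Sema7a, the lipid-anchored semaphorin, had 578 and 436 counts and a log2 ratio of −0.22. The secreted class 3 genes ran from −1.31 to 2.67.

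Plexins, the signalling receptors for semaphorins, were abundant in both libraries, and 2 of the 8 measured ones lay past 2-fold. The most abundant was Plxnb2, a receptor for class 4 semaphorins, with 10572 counts (400.5 CPM) in KS against 11886 (509 CPM) in UKS, a log2 ratio of 0.35. Plxna1, a partner of neuropilins, had 9293 counts (352 CPM) and 8452 counts (362 CPM), a log2 ratio of 0.04. Plxna2, another neuropilin partner, had 2826 counts (107 CPM) in KS against 761 (32.6 CPM) in UKS, 3.28-fold lower [3.03 to 3.56]. Plxnd1, the receptor for Sema3e, had 1258 counts (47.7 CPM) in KS against 2716 (116 CPM) in UKS, 2.44-fold higher [2.28 to 2.61]. The ligand Sema3e and its receptor Plxnd1 thus stood on opposite sides, and the ratio of Sema3e to Plxnd1 was 6.78-fold lower in UKS [5.41 to 8.54]. The difference between their log2 ratios was −2.58 as counted and −1.77 after removal of the trend, where Sema3e itself lay within 2-fold. The X-linked Plxna3 had 1553 and 1416 counts and a log2 ratio of 0.04. Plxnb1 (608 and 930 counts) had a log2 ratio of 0.76 and Plxna4 (37 and 36 counts) one of 0.08. Plxnc1, the receptor for Sema7a, had 52 and 16 counts and a log2 ratio of −0.82, and passed the filter through KS alone.

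Ephrin-As are the lipid-anchored ligands of EphA receptors. Their median log2 ratio was 1.17 (0.72 with the length and GC trend removed), the highest of any family with at least 5 measured genes. All 5 were measured, and Efna1, Efna2 and Efna3 were higher by 2-fold or more, Efna2 only before the length and GC trend was removed. Efna1, the usual ligand of EphA2, had 198 counts (7.50 CPM) in KS against 618 (26.5 CPM) in UKS, 3.53-fold higher [3.002 to 4.16]. Efna3 had 72 and 308 counts, 4.84-fold higher [3.73 to 6.34], and Efna2 had 90 and 209 counts, 2.63-fold higher [2.04 to 3.40]. Efna4 (336 and 457 counts) had a log2 ratio of 0.58, and Efna5, a topographic mapping cue, had 633 and 521 counts and a ratio of −0.10 (0.24 with the trend removed). Per kb, Efna4 was the most abundant ephrin-A in KS (37.4% of the family) and Efna1 in UKS (37.0%), and the ratio of Efna1 to Efna5 differed 3.79-fold [3.10 to 4.65] between the libraries, a log2 difference of 1.79 that was 1.04 after removal of the trend.

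Efna1, Efna3 and Efna4 are neighbours on chromosome 3, between 89271733 and 89338028. Within 250 kb of that stretch 25 other genes were measured, with a median log2 ratio of 0.36 (0.01 with the length and GC trend removed). As counted, 1 of them lay past 2-fold in each direction, against 5.81% upward and 10.7% downward of all measured genes. Efna1 (1.69) and Efna3 (1.93) lay above the median of these neighbours, and Efna4 (0.58) close to it. With the trend removed the 3 genes stood at 1.28, 1.55 and 0.10. Efna3 shares 344 exonic bases with Gm15998 on the opposite strand, which had 16 counts in each library. Sema3b and Sema3f are likewise neighbours, on chromosome 9 between 107597674 and 107710475. There 15 other measured genes within 250 kb had a median of 0.34 (−0.09 with the trend removed), and as counted none was past 2-fold. Sema3f stood at 2.67 and Sema3b at 0.68 (2.35 and 0.38 with the trend removed).

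Ephrin-Bs, the transmembrane ligands, stayed within 2-fold. Efnb2, which marks arteries and binds EphB4, had 2760 counts (105 CPM) in KS against 1363 (58.4 CPM) in UKS, a log2 ratio of −0.83. Efnb1, an X-linked gene of tissue boundaries, had 380 counts (14.4 CPM) and 678 counts (29.0 CPM), a log2 ratio of 0.96 and a ratio of 2.02 in CPM [1.78 to 2.29]. Xist, which acts on the X chromosome, had 6998 counts in UKS and 1 in KS, and its part in the Efnb1 value was not tested. The ratio of Efnb1 to Efnb2 differed 3.61-fold [3.13 to 4.17]. Efnb3 had 39 and 32 counts.

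EphA receptors had a median log2 ratio of 0.15 over the 6 that were measured. The dominant EphA receptor was Epha2, which made up 85.6% of EphA RNA per kb in KS and 84.7% in UKS, with 3291 counts (125 CPM) and 3230 counts (138 CPM) and a log2 ratio of 0.15 (−0.08 with the length and GC trend removed). Epha5, a receptor of brain mapping, had 30 counts (1.14 CPM) in KS against 192 (8.22 CPM) in UKS, 7.24-fold higher [4.91 to 11.02], the only EphA receptor past 2-fold as counted. Epha3 (78 and 155 counts, log2 ratio 0.95) and Epha4 (144 and 54 counts, −0.96) stood on opposite sides just within 2-fold, and their ratio differed 5.30-fold [3.43 to 8.20]. Epha7 had 292 and 188 counts and a log2 ratio of −0.41 (0.42 with the trend removed). Epha1 had 188 and 187 counts and a log2 ratio of 0.15 (−0.11 with the trend removed), but 236 of its exonic bases overlap Zyx on the opposite strand, which had 14281 and 11882 counts, so its value is uncertain, since nothing in the sources used here says that counting used strand.

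All 4 measured EphB receptors lay within 2-fold, between −0.01 and 0.58 on the log2 scale. Ephb4, the receptor of Efnb2, was the most abundant, with 2973 counts (113 CPM) in KS against 3283 (141 CPM) in UKS, and it made up 64.9% and 66.6% of EphB RNA per kb. Ephb2 had 1242 and 1325 counts, Ephb3 897 and 786 counts, and the kinase-dead Ephb6 252 and 344 counts. The shares of ephrin-B RNA differed more: Efnb1 made up 16.6% in KS and 41.4% in UKS.

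Textbook ligand and receptor pairs can be read side by side from these values. The pairs named here are a selection of those possible. Both genes were past 2-fold upward in UKS for Ntn1 with Unc5b, Sema3f and Sema3g with Nrp2, Slit1 with Robo2, and Efna1 and Efna3 with Epha5. Sema3g, Slit1 and Robo2 passed the filter through UKS alone, so their side was fixed, as given above. Sema3a and Nrp1 had log2 ratios of −1.06 and −0.44 (−0.23 and −0.46 with the trend removed). Other pairs had partners on opposite sides or 1 partner near 0: Efna1 stood at 1.69 and Epha2 at 0.15, Efnb2 at −0.83 and Ephb4 at 0.32, Slit3 at −2.82 and Robo1 at 0.19, and Sema3e at −1.31 and Plxnd1 at 1.27. Likewise Ntn1 stood at 1.88 and Unc5c at −0.12, Efna5 at −0.10 and Epha5 at 2.11, and Slit2 at −0.29 and Robo2 at 1.58. With the trend removed Unc5c, Efna5 and Slit2 stood at 0.76, 0.24 and 0.53. No test of agreement between partners was made.

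**Figure D3:**
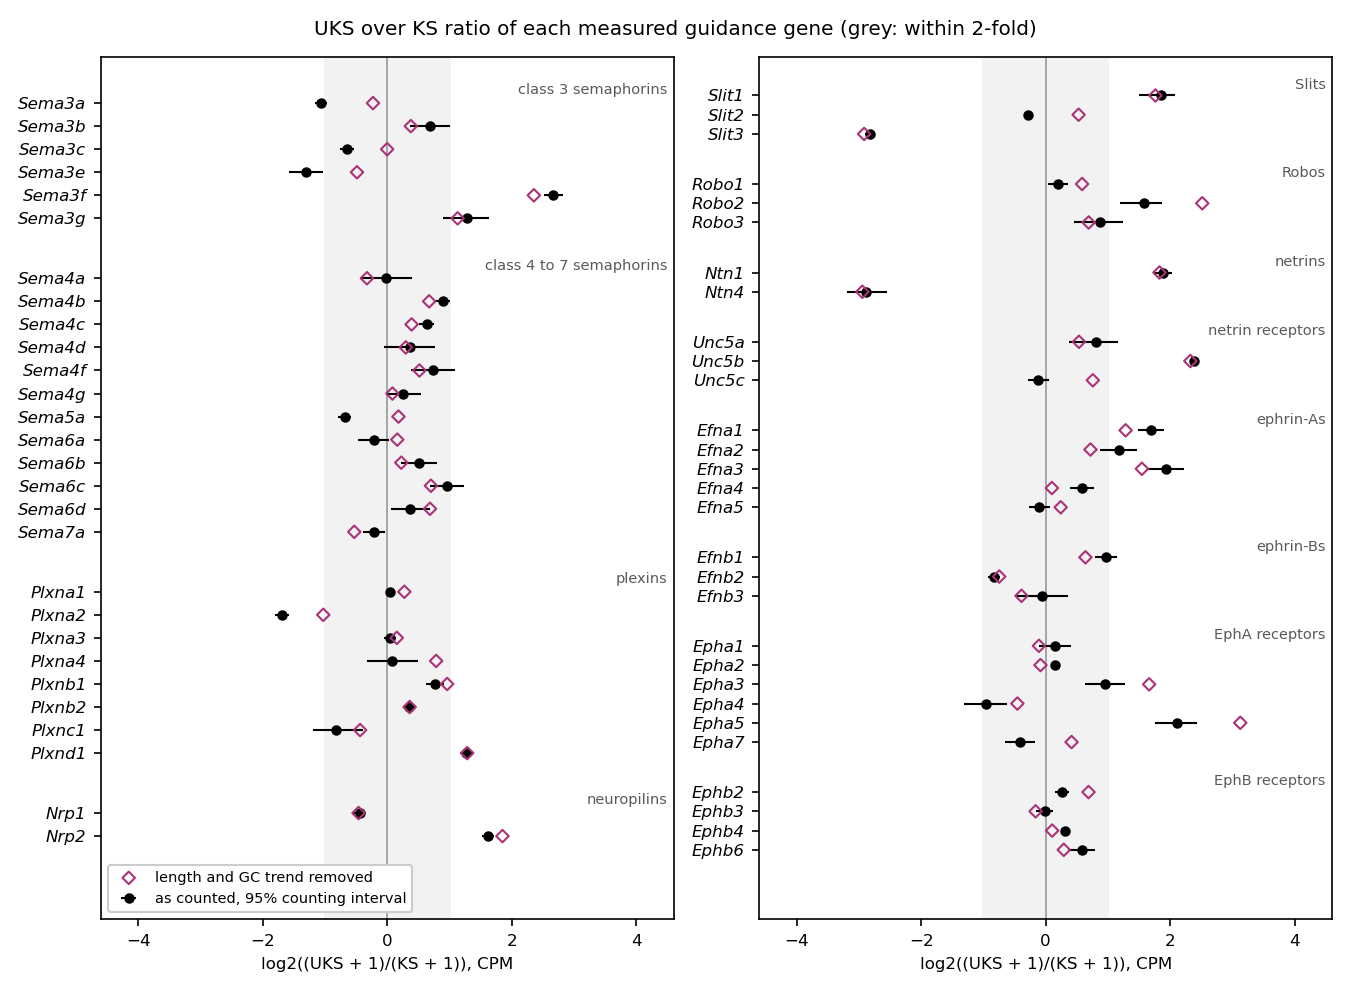
log2((UKS + 1)/(KS + 1)) in CPM for the 57 measured guidance genes by family: filled points are values as counted with exact 95% counting intervals, open diamonds the values with the length and GC trend removed, and the grey band is within 2-fold. For Unc5b, Ntn1, Slit3 and Ntn4 both marks lie close together, whereas Sema3a and Sema3e move into the band and Epha5, Robo2 and Epha3 move up.

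Guidance genes have long transcripts, and ratios in these libraries followed transcript length and GC content. Across the 12997 measured genes with both properties, Spearman's correlation between the log2 ratio and length was −0.40, and for GC content 0.52; across the 57 members these were −0.24 and 0.48. These are descriptions across genes, which share 2 libraries and are not replicates. The members had a median transcript of 4797 nt at 56.2% GC, against 3158 nt and 49.9% over all measured genes. With the trend removed by a robust regression, 12 members lay past 2-fold upward (21.1%, against 5.51% of all) and 3 downward (5.26%, against 4.97%), and the median was 0.38, against 0.01 over all genes. Of the 12 higher members 11 remained past 2-fold and of the 5 lower members 3 did: Slit3 (−2.92), Ntn4 (−2.94) and Plxna2 (−1.03). The upward counts with the trend removed still include Sema3g, Slit1 and Robo2, which passed the filter through UKS alone. Sema3a went from −1.06 to −0.23, Sema3e from −1.31 to −0.49 and Efna2 from 1.17 to 0.72. The receptors Epha5 (2.11 to 3.13), Robo2 (1.58 to 2.52) and Epha3 (0.95 to 1.66) went up, and Epha3 thereby passed 2-fold. The sign of the ratio changed in 8 members, all within 2-fold as counted: Sema5a, Sema6a, Slit2, Unc5c, Efna5, Epha1, Epha2 and Epha7. Unc5b (2.32), Sema3f (2.35), Nrp2 (1.85) and Ntn1 (1.83) stayed past 2-fold.

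**Figure D4:**
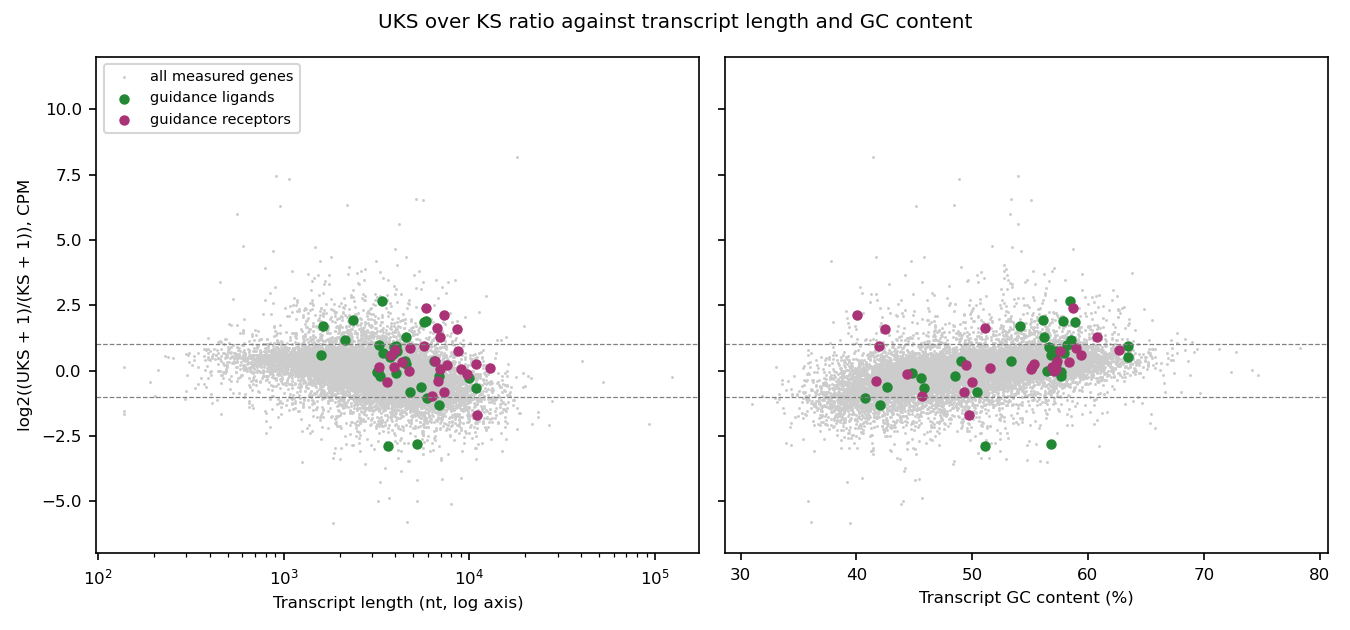
log2((UKS + 1)/(KS + 1)) in CPM against transcript length (nt, log axis) and transcript GC content (%), for all measured genes (grey) and the measured guidance ligands (green) and receptors (purple), with dashed lines at 2-fold. Most members lie on the long and GC-rich side of the cloud, and the 2 lowest ligands, Ntn4 and Slit3, lie near its lower edge.

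Other genes of the guidance pathways were read from 2 lists chosen by role, with earlier results of these data known. Of 66 measured intracellular effectors, the GTPases, kinases and adaptors that act below guidance receptors, 4 lay past 2-fold upward (6.06%, against 5.81% of all measured genes) and 12 downward (18.2%, against 10.7%), with a median of −0.22. With the trend removed these were 3 (4.55%, against 5.51%) and 8 (12.1%, against 4.97%), with a median of −0.09. The largest differences were in Rock2 and Rock1, kinases which drive actomyosin contraction and growth cone collapse: Rock2 had 6469 and 602 counts (log2 ratio −3.20, and −2.27 with the trend removed) and Rock1 had 2083 and 291 counts (−2.57 and −1.65). Trio, a GTPase exchange factor downstream of netrin receptors, had 9404 and 2523 counts (−1.71 and −1.18). Dapk1, a death-associated kinase that can act below UNC5 receptors, had 332 and 1142 counts (1.88 and 1.91). The GTPases themselves lay within 2-fold, with Rhoa at −0.12, Rac1 at −0.40 and Cdc42 at −0.46; they were named for their role.

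The second list held 22 further cues and co-receptors, of which 15 were measured. Of these, 1 lay past 2-fold upward (6.67%, against 5.81% of all measured genes) and 2 downward (13.3%, against 10.7%), shares near those of all genes, and the median was −0.20, or 0.25 after removal of the trend. Nrcam, an adhesion molecule that partners neuropilin-2, had 686 and 69 counts (log2 ratio −2.77). Rgma, a repulsive ligand of neogenin, had 2706 and 619 counts (−1.91). Flrt1, of a family of membrane proteins that bind UNC5 receptors, had 67 and 173 counts (1.25). With the trend removed these genes stood at −2.29, −2.22 and 1.30.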

How the data were processed

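RNA of 2 mouse embryonic fibroblast lines was sequenced, 1 library each; groups were taken from the sample descriptions. The authors deposited estimated counts per gene, which are not scaled to depth and carry decimals, per the file headers. The submitters' processing notes list HISAT2, StringTie and GRCm38.p5 with no role or version; which program counted, and whether by strand, is not given in the sources used here. An engineered allele carried by both lines is not reported here.

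Counts were rounded (9 members were not whole). CPM used TMM factors of 0.994 (KS) and 1.01 (UKS) from edgeR 4.0.16 in R 4.3.3, which tests nothing here. Intervals came from scipy 1.17.1, exact and conditional on the summed counts. Coordinates, length and GC content of the longest coding transcript came from GENCODE M21 (GRCm38), which held 51633 of 51912 identifiers. The trend in length (held between 200 and 20000 nt, on a log2 scale) and GC content (35 to 65%) was fitted with cubic terms by Tukey's biweight in statsmodels 0.14.6 on 12859 genes outside the members and lists. Real differences along these properties would be removed with it. The steps were tested on simulated data with planted folds and a planted length and GC trend. Those data held counting error only, without variation between cultures.

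Members and lists were chosen with earlier results of these data known. Named were members past 2-fold, the most abundant of each family, and the 4 listed genes furthest from 0; members named beyond that, and genes named for their role, were added for completeness. Alternatives were another scaling (unscaled totals, DESeq2 1.42.0 size factors), pseudocount, filter, rounding and the trend.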

Additional observations from a re-analysis of the deposited data

How the results depend on the processing

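All 17 members past 2-fold kept that side with unscaled totals, with median-of-ratios size factors, with unrounded counts and with no filter. None of these 17 changed sign under any of the 8 alternatives, but a pseudocount or a filter cannot change a sign. Rescaling and rounding moved these values far less than their distance from 0, so a change of sign was open mainly for the trend removal. A pseudocount of 0.5 CPM added Epha3, Epha4, Plxnc1, Robo3, Sema6c and Unc5a to them, and 1 of 2 CPM took away Sema3g. After removal of the length and GC trend 3 members, in place of 5, lay past 2-fold downward. A minimum of 5 CPM took away Epha5, Robo2, Sema3g and Slit1, which lie below it. The median of the members, 0.32, was 0.18 with no filter and 0.19 with a minimum of 5 CPM, where 68 and 41 members entered. Over all genes that entered, the median was −0.02 and 0.04 under these 2 settings. Of the cue and co-receptor list, 2 genes lay past 2-fold upward with a pseudocount of 0.5 CPM and 0 with a minimum of 5 CPM, in place of 1; its median of −0.20 was 0.25 with the trend removed and −0.53 with the minimum of 5 CPM. The effector median of −0.22 was −0.089 with the trend removed, and that of the guidance members 0.38. The minima change which genes enter; for the other settings the cause was not tested. With 1 library per group, no setting shows how cultures of 1 genotype would vary, and members below 3 counts allow no fold. No paired analysis was possible because each group has 1 library.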

Other observations

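Slitrk genes, leucine-rich membrane proteins that share part of their name with Slits and act in neurite growth and synapse adhesion, lie outside the symbol rule. Of the 6 in the files, 2 were measured, and both were chosen for mention after their values were seen. Slitrk5 had 34 counts in KS and 173 in UKS (log2 ratio 1.88, and 1.98 with the length and GC trend removed), and Slitrk6 had 30 and 102 counts (1.33 and 2.10). The other 4 had at most 4 counts in either library. Unc50, an unrelated gene whose symbol begins like the UNC5 receptors, had 794 and 930 counts and a log2 ratio of 0.39.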
